A study of Mus musculus with 36 samples.

Results

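Transcripts of fibroblasts and of the extracellular matrix, 38 genes by name, were followed in array data of airway macrophages from newborn to adult mice, and 36 of the 38 were measured. A member was taken as the array feature (the set of probes that reports 1 transcript cluster) annotated with exactly that 1 gene symbol, and with several such features, as for Col5a1, the one of highest mean over all 36 arrays was used. The 36 genes stand among 18820 genes with such a feature and 28940 features in the fit. Fbn1 is not analysed here, and Mfap4 was left out because its feature also carries the symbol of another gene, Mapk7. By role, the measured members were 5 fibrillar collagens, 5 other collagens, 5 leucine-rich proteoglycans, 6 elastic fibre proteins, 2 cross-linking oxidases, 5 other secreted matrix proteins, 3 surface receptors and 5 transcription factors.

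The mice were male Scnn1b-Tg mice (Tg), in which club cells of the airway overexpress Scnn1b, a subunit (beta) of the epithelial sodium channel, and their wild-type littermates (WT), all on a C57Bl/6N Tac background. Cells were washed from the lungs by bronchoalveolar lavage (BAL) and depleted of Ly-6G-positive granulocytes, and the labels call the product purified macrophages. The ages were postnatal day (PND) 0, 3, 10 and 42 under specific-pathogen-free conditions (SPF), with a further pair of groups at PND 42 that had been kept germ-free (GF). There were 3 arrays per genotype at PND 0 and in GF mice and 4 per genotype in each other group. An array of PND 0, 3 or 10 held the cells of 3 pups of 1 genotype pooled together, and an array of PND 42 held the cells of 1 mouse. These genes are known from connective tissue rather than from macrophages, and their values describe RNA in the purified BAL cells without saying which cells carried it.

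Fibroblasts build the connective tissue of the lung by secreting collagens, which assemble into fibrils, and elastin, which is laid on a scaffold of microfibrils. Small leucine-rich proteoglycans bind collagen and set the width of the fibrils, and lysyl oxidases cross-link both collagen and elastin. In the mouse lung much of this matrix is laid down in the weeks after birth, while the alveoli form.

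The start regions of 4 members are shown because the members they belong to differed in the PND 0 comparison: Meox2, Postn and Col1a2 were called higher in Tg pools, and Chad was not called. Each run holds the 150 bases before the start site in the RefSeq table of build GRCm38.p6, on the plus strand, with capitals for the letters TATAAA or CCAAT on either strand (TTTATA is TATAAA read from the other strand).
Meox2, chr12:37108390-37108539: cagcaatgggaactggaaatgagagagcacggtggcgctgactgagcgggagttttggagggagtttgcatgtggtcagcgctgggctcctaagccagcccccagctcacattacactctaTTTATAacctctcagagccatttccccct
Postn, chr3:54360957-54361106: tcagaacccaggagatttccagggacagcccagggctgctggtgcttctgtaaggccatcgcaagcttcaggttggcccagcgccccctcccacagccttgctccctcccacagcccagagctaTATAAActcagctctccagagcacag
Col1a2, chr6:4505468-4505617: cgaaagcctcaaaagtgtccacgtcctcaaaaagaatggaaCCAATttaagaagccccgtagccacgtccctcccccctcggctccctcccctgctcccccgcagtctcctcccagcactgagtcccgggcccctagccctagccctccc
Chad, chr11:94564897-94565046: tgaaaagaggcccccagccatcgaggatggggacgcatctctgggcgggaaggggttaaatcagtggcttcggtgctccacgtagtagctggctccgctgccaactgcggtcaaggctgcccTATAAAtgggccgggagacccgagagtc

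The first base of the capitals lay 29 bases before the start in Meox2, 26 in Postn (the second of 2 start sites in the table), 109 in Col1a2 and 28 in Chad. These letters therefore stood at a like place in Meox2 and Postn and in Chad, whose values at PND 0 behaved differently. The RefSeq table held start regions for 21 of the 36 members, in 25 windows of 300 bases, and 7 of these windows held TATAAA, 6 CCAAT and 14 CANNTG on either strand, with overlaps between motifs counted for each. Over all 32851 windows the shares were 13.6% for TATAAA, 37.4% for CCAAT and 72.3% for CANNTG. Since only 58.3% of the members had a window, a comparison of these shares is void, and a match of letters is not a bound site.

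One library of PND 0 touches every value at that age. The Scnn1b feature, which reports both the transgene and the mouse gene, read 10.23 and 10.33 on the log2 scale in Tg replicates 1 and 2 but 5.47 in the third, against 4.06, 5.27 and 6.68 in WT replicates 1 to 3. The third library therefore lay within the WT range at this age and goes against its label, so that it is called the library labelled Tg replicate 3 throughout, and the calls that are lost without it are named. The range at PND 3 was 5.37 to 6.03 over the Tg pools and 3.09 to 3.55 over the WT pools, with no overlap. Markers of alveolar macrophages averaged 8.28 to 9.25 per library of PND 0, and all 17 measured marker genes had group means above the background limit in both genotypes. That limit is the highest of the 36 array medians, 4.06 on the log2 scale, and a group mean at or below it is called near background here.

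At PND 0 the matrix transcripts were higher in Tg than in WT pools as a group, and 2 of the 3 Tg libraries carried the difference. All 36 fitted differences were positive, with a median of 0.94 on the log2 scale against -0.02 over all features, and 19 members passed an adjusted p of 0.05 (limma, Benjamini-Hochberg over all 28940 features). All 19 were higher in Tg pools, a direction in which 2.74% of all features were called, and no member was called lower (1.59% of all features). The called members were Col1a1, Col1a2, Col3a1, Col6a1, Col6a2, Col6a3, Col12a1, Col14a1, Dcn, Lum, Bgn, Ogn, Fbn2, Fbln2, Mfap5, Postn, Meox2, Tcf21 and Tbx5, and 15 of the 19 fitted differences were of 2-fold or more. For 5 of the 19 (Col12a1, Lum, Fbln2, Meox2 and Tbx5) the WT mean was near background. The SEs and p-values come from 1 estimate of the spread per feature, shared by all 10 groups, and not from the PND 0 pools alone. Where the pools of PND 0 spread more widely than that estimate, the SEs and p-values are too small for them.

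Averaged over the 36 members, the 3 Tg libraries read 7.02, 5.13 and 6.85 in replicate order and the WT pools 4.98, 5.53 and 5.18. Tg replicate 2, with a high Scnn1b value, thus lay among the WT pools, while the library labelled Tg replicate 3, with a low one, lay beside Tg replicate 1. The means were 6.33 ± 1.05 in Tg pools and 5.23 ± 0.28 in WT pools (SD, n = 3 each). In bulk RNA such as this, a change in the number of cells of a type and a change in the RNA per cell cannot be told apart.

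Gene by gene the same order of libraries recurred. Tg replicate 1 and the library labelled Tg replicate 3 both exceeded every WT pool for 32 of 36 members and for all 19 called ones. All 3 Tg libraries exceeded every WT pool for only 4 members (Col12a1, Fbln2, Mfap5 and Sparc), a pattern that 4.21% of all features had. Tg replicate 2 lay within the WT range for 22 members, below it for 9 and above it for 5, and it was under both other Tg libraries for 35 of 36, with Chad as the exception. For 28 members the other 2 Tg libraries stood above all WT pools and Tg replicate 2 did not, against 6.01% of all features.

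**Figure D1:**
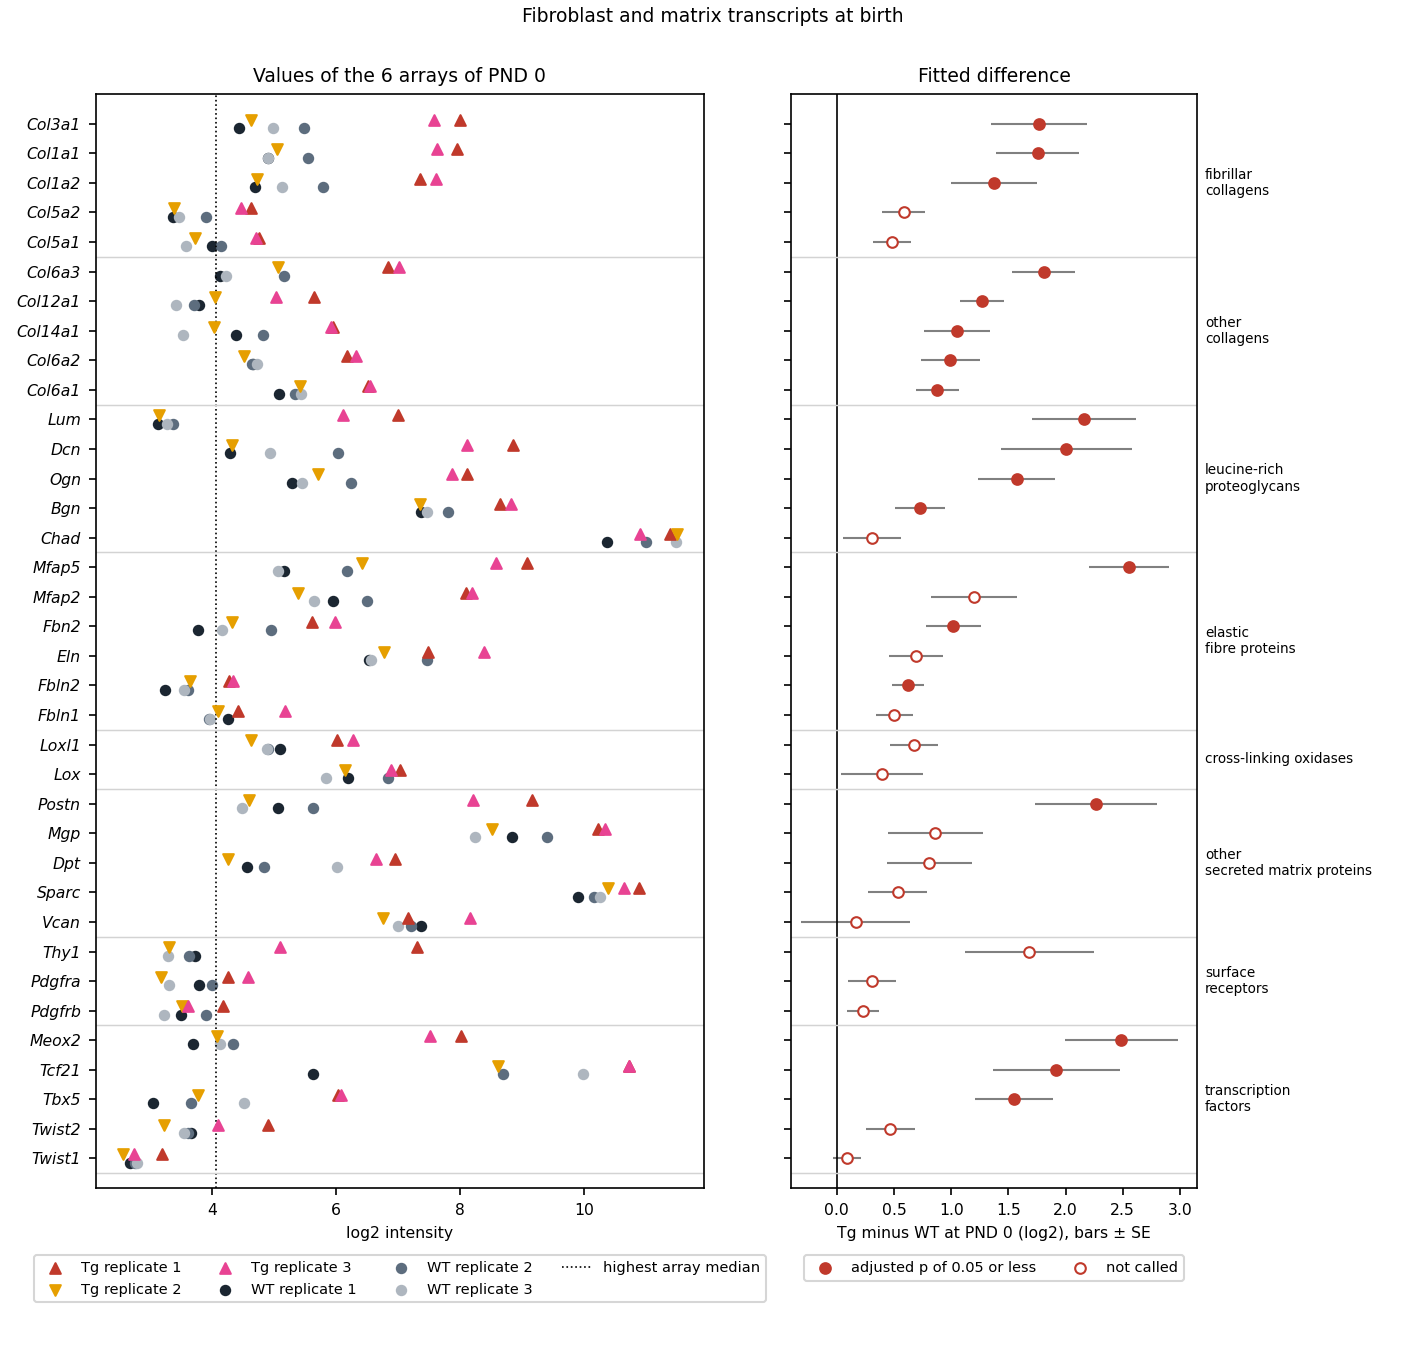
Left, log2 intensity (horizontal axis) of each of the 36 members in the 6 arrays of PND 0, with Tg libraries as triangles and WT pools as circles, rows grouped by role, and the background limit of 4.06 as a dotted line. Right, the fitted Tg minus WT difference (log2) with bars of 1 SE, filled for the 19 members called at an adjusted p of 0.05. Tg replicate 2 (triangle pointing down) lies among the WT circles for most members, while the other 2 Tg libraries lie to the right.

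The fibrillar collagens Col1a1, Col1a2 and Col3a1, which form the load-bearing fibrils of connective tissue, rose in Tg pools, and 3 of the 5 genes of this role were called. Col3a1 read 8.00 in Tg replicate 1, 4.62 in Tg replicate 2 and 7.57 in the library labelled Tg replicate 3, against 4.44, 5.48 and 4.98 in WT pools. The first and the third stood far above the highest WT pool and the second lay inside the WT range, and the fitted difference was 1.77 ± 0.42 (SE, adjusted p = 0.0123). Col1a1 read 7.95, 5.04 and 7.63 in the Tg libraries, in the same order, against 4.90, 5.54 and 4.90 in WT pools. It differed by 1.76 ± 0.36 (adjusted p = 0.00376), or 3.38-fold. For Col1a2 the difference was 1.37 (adjusted p = 0.0299). Without the library labelled Tg replicate 3 the calls of Col3a1 and Col1a2 were lost (adjusted p = 0.0805 and 0.208). Col5a1 and Col5a2, minor chains that help to start fibrils, had WT means near background and differences of 0.48 and 0.58 that did not pass.

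All 5 other collagens rose in Tg pools. Col6a3, a chain of the beaded collagen VI filaments around cells, read 6.84, 5.06 and 7.02 in the 3 Tg libraries and 4.12, 5.15 and 4.22 in WT pools. Here Tg replicate 2 lay just under the highest WT pool and above the other WT pools, and the difference was 1.81 ± 0.28 (adjusted p = 0.000159). Col12a1, which decorates the surface of fibrils, read 5.64, 4.04 and 5.02 in Tg libraries, against 3.78, 3.70 and 3.42 in WT pools. The groups did not overlap, although the WT mean was near background, and the difference was 1.27 ± 0.19 (adjusted p = 0.000153). The remaining members of this role, Col6a1, Col6a2 and Col14a1, differed by 0.88, 0.99 and 1.05, and the last 2 were not called without the library labelled Tg replicate 3 (adjusted p = 0.153 and 0.178).

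Of the leucine-rich proteoglycans, 4 of 5 rose. Lum (lumican, a regulator of fibril width) read 6.99, 3.14 and 6.11 in the Tg libraries, against 3.13, 3.36 and 3.27 in WT pools. It was near background in all WT pools and in Tg replicate 2 and clearly above it in the other 2 libraries, with a difference of 2.16 ± 0.46 (adjusted p = 0.00462). Dcn (decorin, which coats collagen fibrils) read 8.84, 4.32 and 8.10 in Tg libraries and 4.28, 6.03 and 4.93 in WT pools. The gap between Tg replicates 1 and 2 was wider than the Tg minus WT difference, which was 2.01 ± 0.57 (adjusted p = 0.0408). Ogn (osteoglycin), whose gene lies within the span of Cenpp in RefSeq, read 8.11, 5.71 and 7.86 in Tg libraries and 5.28, 6.24 and 5.44 in WT pools, a difference of 1.57 (adjusted p = 0.00558). Bgn (biglycan) differed by 0.73 (adjusted p = 0.0493). Without the library labelled Tg replicate 3, Dcn and Bgn lost their calls (adjusted p = 0.182 and 0.275).

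Chad (chondroadherin), a leucine-rich protein known from cartilage, stood apart from the other 4. It read 11.38, 11.49 and 10.90 in Tg libraries and 10.37, 11.00 and 11.49 in WT pools, so that the groups overlapped, and the difference was 0.30 ± 0.25 (adjusted p = 0.63). Of 13 other measured cartilage genes, 10 were near background in Tg pools and 12 in WT pools, Acan and Comp among them in both. In the RefSeq annotation the gene lies within the span of Acsf2, and the feature is annotated to Chad alone.

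Among the elastic fibre proteins, 3 of 6 rose. Mfap5, a microfibril glycoprotein, had the largest fitted difference of the 36 members: 9.08, 6.41 and 8.58 in Tg libraries, against 5.16, 6.18 and 5.06 in WT pools. All 3 Tg libraries exceeded all WT pools, Tg replicate 2 by little, and the difference was 2.56 ± 0.35 (5.88-fold, adjusted p = 3.29e-05). Mfap2, another microfibril protein, read 8.09, 5.38 and 8.19 in Tg libraries, against 5.94, 6.49 and 5.63 in WT pools. Tg replicate 2 was the lowest of the 6, and the difference of 1.20 ± 0.37 did not pass (adjusted p = 0.0649). Fbn2 (fibrillin 2, the fetal microfibril subunit) and Fbln2 (fibulin 2) rose by 1.02 and 0.62, both losing the call without the library labelled Tg replicate 3 (adjusted p = 0.0903 and 0.0576), while Eln (elastin itself) and Fbln1 differed by 0.69 and 0.50 without passing (adjusted p = 0.0957 and 0.0664).

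Neither oxidase was called. Loxl1 read 6.01, 4.62 and 6.27 in Tg libraries and 5.09, 4.90 and 4.87 in WT pools, with a difference of 0.67 ± 0.21 (adjusted p = 0.0604). Lox read 7.02, 6.14 and 6.88 in Tg libraries and 6.18, 6.83 and 5.83 in WT pools. For this gene 2 Tg libraries only just exceeded the highest WT pool, and the difference was 0.40 ± 0.36 (adjusted p = 0.663).

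Only 1 of the 5 other secreted matrix proteins was called. Postn (periostin, a matrix protein that binds integrins and collagen) read 9.15, 4.60 and 8.20 in Tg libraries, against 5.05, 5.62 and 4.48 in WT pools. With Tg replicate 2 inside the WT range, the difference was 2.27 ± 0.53 (4.81-fold, adjusted p = 0.0116). Without the library labelled Tg replicate 3 it was 1.82 (adjusted p = 0.0671). Mgp (matrix Gla protein, an inhibitor of calcification) read 10.22, 8.52 and 10.33 in Tg libraries and 8.84, 9.40 and 8.25 in WT pools, a difference of 0.86 ± 0.42 (adjusted p = 0.287). Dpt, Sparc and Vcan differed by 0.81, 0.53 and 0.16 (adjusted p = 0.249, 0.286 and 0.926).

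No surface receptor was called, and the platelet-derived growth factor receptors that define fibroblasts and pericytes were dim. Pdgfra read 4.26, 3.18 and 4.58 in Tg libraries and 3.78, 4.00 and 3.31 in WT pools, a difference of 0.31 ± 0.21 (adjusted p = 0.517). Pdgfrb was near background in both group means (3.76 in Tg and 3.53 in WT). Thy1, a surface protein of many fibroblasts and, in mice, of T cells, read 7.31, 3.29 and 5.08 in Tg libraries, against 3.72, 3.63 and 3.29 in WT pools. Its 2 high libraries differed from each other as well, and the difference of 1.68 ± 0.56 did not pass (adjusted p = 0.0884).

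Transcription factors of lung mesenchyme rose in Tg pools in 3 of 5 cases. Meox2, a homeobox factor of mesenchyme, read 8.01, 4.08 and 7.51 in Tg libraries and 3.68, 4.33 and 4.13 in WT pools. The difference was 2.49 ± 0.49 (adjusted p = 0.00264), and since the WT mean was near background it is given as at least 5.15-fold, with WT pools below the background limit raised to it. Tcf21, which marks lung fibroblasts of the lipid-storing kind, read 10.72, 8.60 and 10.73 in Tg libraries, against 5.62, 8.69 and 9.98 in WT pools. The WT pools were spread more widely than the Tg libraries (SD 2.24 and 1.22 for WT and Tg in their own groups), and the difference was 1.92 ± 0.56 (adjusted p = 0.0444). It rested on the lowest WT pool: without WT replicate 1 the difference was 0.68 (adjusted p = 0.404), and the call was also lost without Tg replicate 1 (adjusted p = 0.235) and without the library labelled Tg replicate 3 (adjusted p = 0.158). Tbx5, which patterns the lung bud, read 6.03, 3.77 and 6.07 in Tg libraries and 3.05, 3.66 and 4.51 in WT pools (1.55, adjusted p = 0.00671), and without the library labelled Tg replicate 3 its adjusted p was 0.0509. Twist1 and Twist2 differed by 0.09 and 0.47 (adjusted p = 0.806 and 0.263).

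How many members were called at PND 0 depended on single libraries and on the arrays in the fit. Without Tg replicate 1 the count was 4 (1.9% of all features called in either direction), and without Tg replicate 2 it was 30 (7.25%). It was 8 without the library labelled Tg replicate 3 (4.88%) and 9 without WT replicate 1 (3.0%), beside 19 (4.33%) in the full fit. Of the 19 called members, 15 lost the call without Tg replicate 1, 11 without the library labelled Tg replicate 3 and 10 without WT replicate 1. The 11 were Col1a2, Col3a1, Col6a2, Col14a1, Dcn, Bgn, Fbn2, Fbln2, Postn, Tcf21 and Tbx5. The 15 were these 11 and Col1a1, Col6a1, Lum and Ogn (adjusted p between 0.062 and 0.38). The 10 were the 11 without Postn. Col14a1, Dcn and Bgn also lost the call without WT replicate 3, and Col6a2 without WT replicate 2. Without the library labelled Tg replicate 3, 35 of the 36 differences stayed positive, with Vcan at -0.24. Col6a3, Col12a1, Mfap5 and Meox2 were called whichever of the 6 libraries was left out. A fit on the 6 arrays of PND 0 alone called 0 members and 0 features, with 6 members and 5.80% of all features at an unadjusted p under 0.05. The median SD of the members within Tg pools was 0.94, against 0.19 over all features in the same group.

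Other genes of matrix production were set beside the members. Of 38 other matrix genes measured, 15 rose and 0 fell in Tg pools at PND 0, led by Aspn (1.67), Nid1 (1.42) and Efemp1 (1.37), which encode a leucine-rich protein, a basement membrane linker and a fibulin. Of 23 enzymes and chaperones of collagen synthesis, 6 rose and 1 fell, with Pcolce (1.46), which speeds removal of the C-terminal propeptide, Mia3 (0.98), which is needed to export procollagen, and Plod2 (0.81), a lysyl hydroxylase, differing most. Of 27 growth factors and receptors of fibroblasts, 6 rose and 0 fell, among them Fgf10 (1.26), Tgfb2 (0.94) and Bmp4 (0.85). The median difference was 0.46 for the other matrix genes, 0.08 for the enzymes and 0.55 for the growth factors and receptors, beside the 0.94 of the members. Without the library labelled Tg replicate 3, the genes that rose numbered 10 of the other matrix genes, 4 of the enzymes and 3 of the growth factors and receptors, and without Tg replicate 1 they numbered 7, 4 and 3. Leaving out WT replicate 1 gave 10, 4 and 3, and leaving out Tg replicate 2 gave 22, 7 and 12. All features called in either direction were 4.88% without the library labelled Tg replicate 3 and 1.9% without Tg replicate 1. They were 3.0% without WT replicate 1 and 7.25% without Tg replicate 2.

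Markers of other cells moved in the same comparison. Erythroid genes followed the same libraries as the matrix members: their mean was 7.15, 3.46 and 6.52 in the Tg libraries and 3.54, 3.73 and 3.79 in WT pools, and 6 of 9 rose and 0 fell, Slc4a1 (the anion exchanger of red cells) by 4.08. Without Tg replicate 1 none of these 9 was called, and without the library labelled Tg replicate 3, 5 were. Hbb-bh1 and Klf1 were near background in both genotypes. Smooth muscle and pericyte genes had means of 4.86, 3.87 and 4.82 in Tg libraries and 3.84, 3.80 and 4.24 in WT pools. Of these genes 3 of 14 rose (Des 2.11, Mylk 0.81 and Myh11 0.56), and the WT means of Des and Myh11 were near background. The number that rose was 1 without Tg replicate 1, 1 without the library labelled Tg replicate 3 and 7 without Tg replicate 2. Of the pericyte markers in this list, Rgs5 and Kcnj8 were near background in both genotypes, while Cspg4 and Notch3 were above it in both.

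Skeletal muscle genes rose in 17 of 23 cases but in a different order of libraries, with means of 5.63, 5.34 and 4.73 in Tg libraries and 3.38, 3.31 and 3.52 in WT pools. Tg replicate 2, which was low for the matrix members, was high for this list. Of the 23 genes, 16 had Tg means above background and 7 did not, Myog and Myod1, the defining regulators, among the latter. Whichever library was left out, 16 to 21 of the 23 rose. Endothelial genes (0 of 12 called) averaged 3.50 to 4.17 in Tg libraries and 3.41 to 3.59 in WT pools, and 8 of the 12, Tek, Tie1 and Cldn5 among them, were near background in both. Mesothelial genes (1 of 8 higher, Rspo1) averaged 5.22 to 5.27 in Tg libraries and 4.78 to 5.25 in WT pools. Of these 8, 4 were above background in Tg and 3 in WT pools. Msln, Upk1b and Krt19 were above it in both, and Wt1 and Upk3b were near it in both. Airway epithelial genes (0 of 11 called) averaged 7.42 to 7.88 in Tg libraries and 7.02 to 8.05 in WT pools. In alveolar epithelial genes 1 of 12 was called, Lamp3, which fell by 0.94, and none was called of 6 bone genes, all near background, or of 11 keratinocyte genes. Alveolar macrophage genes ran the other way, with 4 of 17 lower in Tg pools and list means of 8.28, 8.75 and 8.79 in Tg libraries and 9.25, 9.12 and 8.64 in WT pools. Leaving out 1 library moved this count to between 0 (without Tg replicate 1) and 10 (without WT replicate 3), with 7 without the library labelled Tg replicate 3. The part of these other cells in the differences of the matrix members was not tested.

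**Figure D2:**
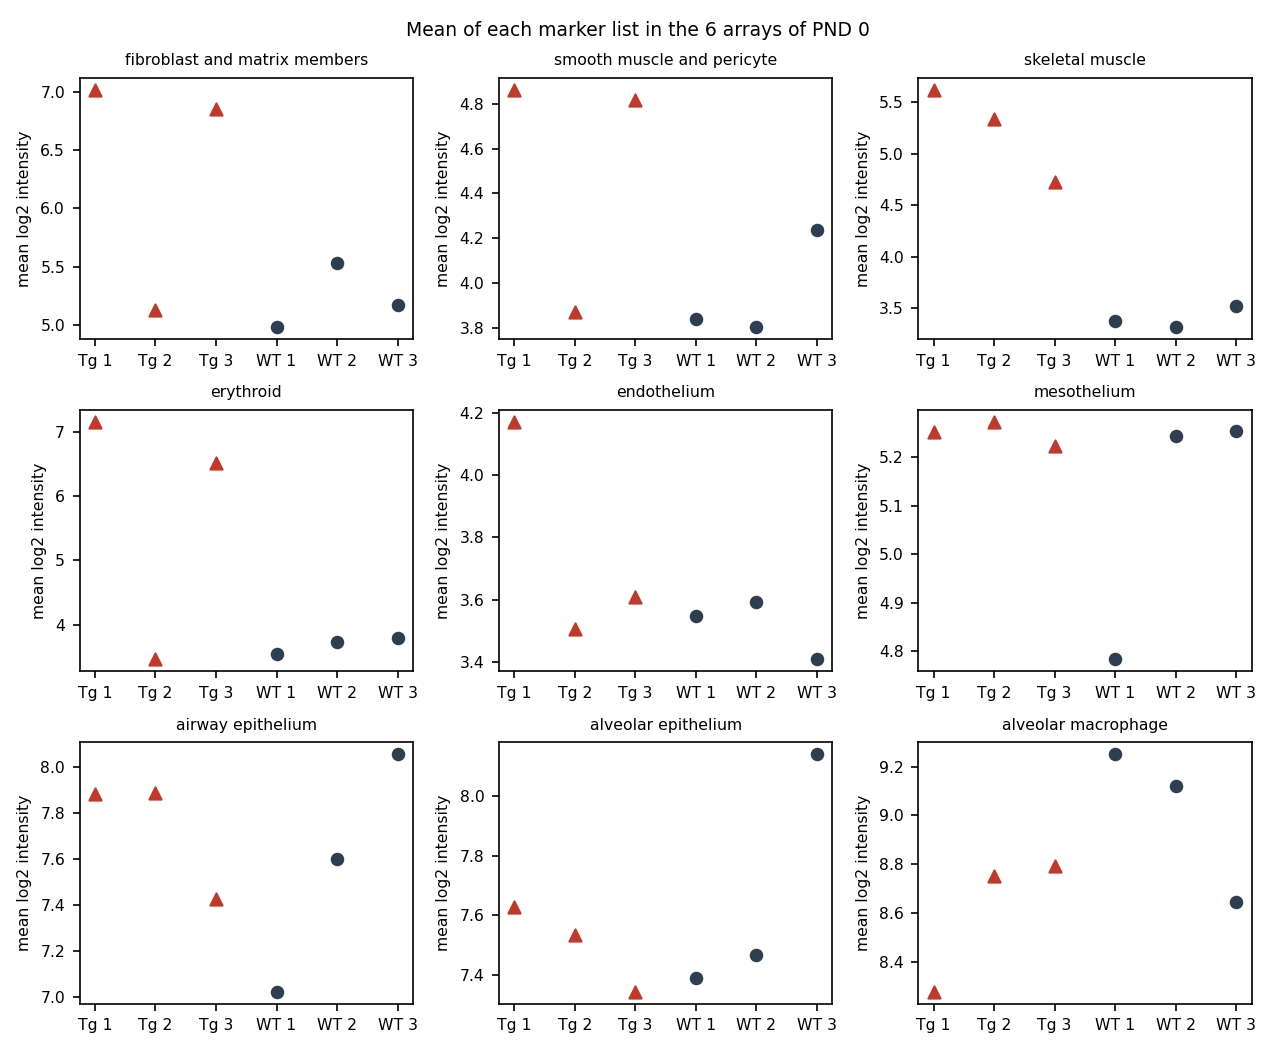
Mean log2 intensity of 9 gene lists (vertical axes, each with its own range that does not start at 0) in the 6 arrays of PND 0, Tg libraries as triangles left of WT pools as circles. The matrix members, the smooth muscle and pericyte list and the erythroid list are low in Tg replicate 2 and high in the other 2 Tg libraries, whereas the skeletal muscle list is high in all 3.

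The members were for the most part a feature of the day of birth in both genotypes. In WT mice 27 of 36 fell at PND 3 relative to PND 0 and 0 rose, while 12.0% of all features fell. In Tg mice 35 of 36 fell (Twist1 did not pass), against 14.0% of all features. The median change over the members was -1.40 in WT mice and -2.46 in Tg mice, with medians of 0.00 and 0.04 over all features.

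By PND 3 little of the signal was left. Averaged over the 36 members, Tg pools read 3.52 ± 0.04 and WT pools 3.44 ± 0.02 (SD, n = 4 each) at PND 3. Tg pools of PND 10 read 3.40 and WT pools of that age 3.30. Among adults the averages were 3.36 for Tg and 3.31 for WT mice under SPF conditions, and 3.35 for Tg and 3.30 for WT mice raised germ-free. Every array after birth thus lay below each array of PND 0. At birth, 33 members had a Tg mean above the background limit (50.1% of all features did) and 23 a WT mean above it (49.1%), while no later group had more than 3 (45.0% to 46.0% of features).

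**Figure D3:**
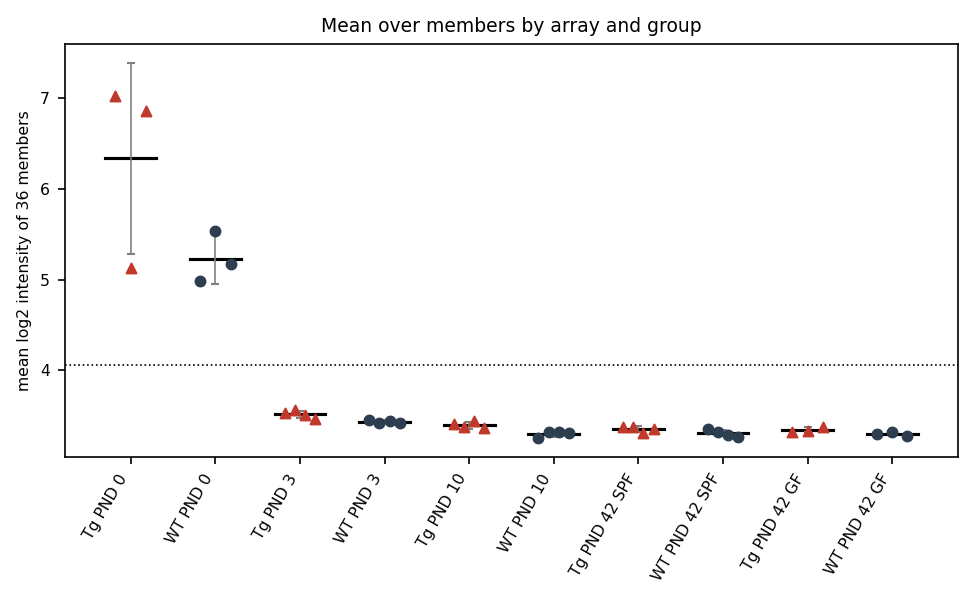
Mean log2 intensity of the 36 members in each of the 36 arrays (vertical axis, not starting at 0), with Tg as triangles and WT as circles, group means as black lines, bars of 1 SD and the background limit as a dotted line. The Tg libraries of PND 0 sit at 5.13 to 7.02 and the WT pools at 4.98 to 5.53, above all arrays of later ages.

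Chad fell by 7.29 at PND 3 in Tg mice and fell by 6.48 in WT mice, and its 6 arrays of PND 0 all exceeded every later array. Tcf21 fell by 6.90 in Tg mice and fell by 5.15 in WT mice, and Mgp fell by 5.73 in Tg mice and fell by 4.82 in WT mice. Bgn fell by 5.02 in Tg mice and fell by 4.17 in WT mice. Sparc, a collagen-binding glycoprotein, fell by 5.30 in Tg mice and fell by 4.29 in WT mice. These 5 were well above background in both genotypes at birth, whereas of the 13 members near background in WT pools at birth 4 were called lower in WT mice and 9 were not. Of these 9, Lum changed by 0.17 in WT mice (adjusted p = 0.848) and fell by 2.12 in Tg mice, and Meox2 changed by -0.64 in WT mice (adjusted p = 0.375) and fell by 3.36 in Tg mice. Every Tg array of PND 0 exceeded every array of later ages for 29 of 36 members (7.74% of all features), and every WT array did so for 24 (5.43%).

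The Tg minus WT difference itself shrank by PND 3 for 8 members, by a test of the interaction between age and genotype that called 1.58% of all features lower. These were Col1a1, Col6a3, Col12a1, Lum, Ogn, Mfap5, Meox2 and Tbx5, by between 1.27 (Col12a1, adjusted p = 0.00415) and 2.72 (Meox2, adjusted p = 0.0162). At PND 3 these 8 were near background in both genotypes, where a difference could not show, so that the interaction largely restates the differences at PND 0. Without Tg replicate 1 or without the library labelled Tg replicate 3 the interaction kept 3 calls, Col6a3, Col12a1 and Mfap5 each time. It kept these 3 and Meox2 without WT replicate 1, and had 28 calls without Tg replicate 2.

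After birth, 30 of the 36 members stayed near background in all 8 later groups, with group means between 2.57 and 4.05. The 6 others were Chad, Lox, Sparc, Mgp, Vcan and Thy1, each above the limit in some groups only. For Chad this was a single group, WT PND 3 (4.47 ± 0.43, n = 4), and for Mgp 2 groups, Tg PND 10 (4.10 ± 0.52, n = 4) and WT PND 42 in SPF housing (4.29 ± 0.98, n = 4).

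Lox, the lysyl oxidase, was higher in Tg pools at PND 3, 1 of 2 members called in this comparison (2.17% of all features were called higher). It read 5.63, 6.29, 5.41 and 4.18 in Tg pools and 4.40, 3.09, 3.26 and 3.41 in WT pools. The lowest Tg pool lay under the highest WT pool, the other 3 above all WT pools, and the difference was 1.83 ± 0.31 (adjusted p = 0.000261). With a WT mean near background, this is at least 2.35-fold. At PND 10 the gene was near background in both genotypes, and in Tg mice it fell by 1.71 (adjusted p = 0.00149, with 0.936% of all features called lower).

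Vcan (versican), a large proteoglycan made by fibroblasts and also by monocytes, was the second. Its values were 5.81, 6.61, 5.51 and 4.08 in Tg pools, against 5.87, 3.29, 3.25 and 3.68 in WT pools. One WT pool, replicate 1, read as high as the Tg pools, and Tg replicate 4 was low for Vcan and Lox alike. The difference of 1.48 ± 0.41 (adjusted p = 0.0335) lost its call when any of WT replicates 2 to 4 or Tg replicates 1 to 3 of PND 3 was left out (adjusted p between 0.0768 and 0.184). In Tg mice Vcan fell by 1.75 at PND 10 (adjusted p = 0.0208), and this call was lost without any of Tg replicates 1 to 3 of PND 3 or Tg replicates 1 or 3 of PND 10 (adjusted p between 0.0572 and 0.149).

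Sparc kept a low level above background at PND 3 and 10 and was near background at PND 42 in SPF mice of both genotypes. Its falls to PND 42 therefore end at the floor, and their sizes are lower bounds. Its means at PND 3, 10 and 42 (SPF) were 5.33, 5.19 and 3.55 in Tg mice and 5.82, 4.44 and 3.53 in WT mice. In WT mice it fell by 1.37 at PND 10 relative to PND 3 (adjusted p = 0.00221) and by a further 0.91 at PND 42 (adjusted p = 0.0182). The second call was lost without WT replicate 3 of PND 10, the highest of its group (adjusted p = 0.11), and without WT replicate 2, 3 or 4 of PND 42 (adjusted p between 0.0542 and 0.0849). In Tg mice the gene fell by 1.63 at PND 42 relative to PND 10 (adjusted p = 1.72e-05, with 2.03% of all features called lower). The WT changes were the sole calls among the members for WT PND 10 against PND 3 and WT PND 42 against PND 10, where 0.100% and 1.19% of all features fell. At PND 10 Sparc read 4.55, 5.24, 5.73 and 5.24 in Tg pools and 4.26, 4.22, 4.96 and 4.33 in WT pools, a difference of 0.75 ± 0.22 that did not pass (adjusted p = 0.094), and no member was called between the genotypes at this age (1.57% of features in either direction). That the timing of the fall differed between the genotypes was not tested.

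Thy1 was the member that stood above background in adult Tg mice of both housings. In GF mice it read 5.83, 5.93 and 6.98 in Tg and 4.50, 3.48 and 3.03 in WT arrays. The groups did not overlap, and the difference of 2.58 ± 0.56 (at least 4.12-fold, the WT mean being near background, adjusted p = 0.00414) was the only one called among the members in GF mice, where 3.14% of all features were higher. Without Tg GF replicate 3 the adjusted p was 0.0575. In SPF mice the gene read 5.44, 5.39, 6.23 and 5.69 in Tg and 3.56, 5.28, 3.95 and 4.49 in WT mice, again without overlap, but the difference of 1.37 ± 0.49 did not pass (adjusted p = 0.128), and no member was called in that comparison (2.72% of features higher). In Tg mice Thy1 rose by 2.14 at PND 42 relative to PND 10 (adjusted p = 0.00655, with 2.58% of all features called higher).

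Chains of the T cell receptor complex, picked after the values were seen because Thy1 marks T cells in mice, are set beside it. Under SPF conditions Cd3e averaged 4.75 in Tg and 3.63 in WT mice, and in GF animals 4.83 in Tg and 3.12 in WT mice. For Cd3g the averages were 4.08 in Tg and 3.45 in WT mice (SPF), and 3.98 in Tg and 3.12 in WT mice (GF), the last pair both near background. The limma difference passed for Cd3e in SPF mice (1.12 ± 0.26, adjusted p = 0.00645) and in GF mice (1.71 ± 0.30, adjusted p = 0.00031) and for Cd3g in GF mice (0.86 ± 0.23, adjusted p = 0.0221) but not for Cd3g in SPF mice (0.63 ± 0.20, adjusted p = 0.0683). The SPF arrays overlapped for both genes. Their part in the Thy1 result was not tested. The collagens, by contrast, were near background in all 4 groups of PND 42.

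**Figure D4:**
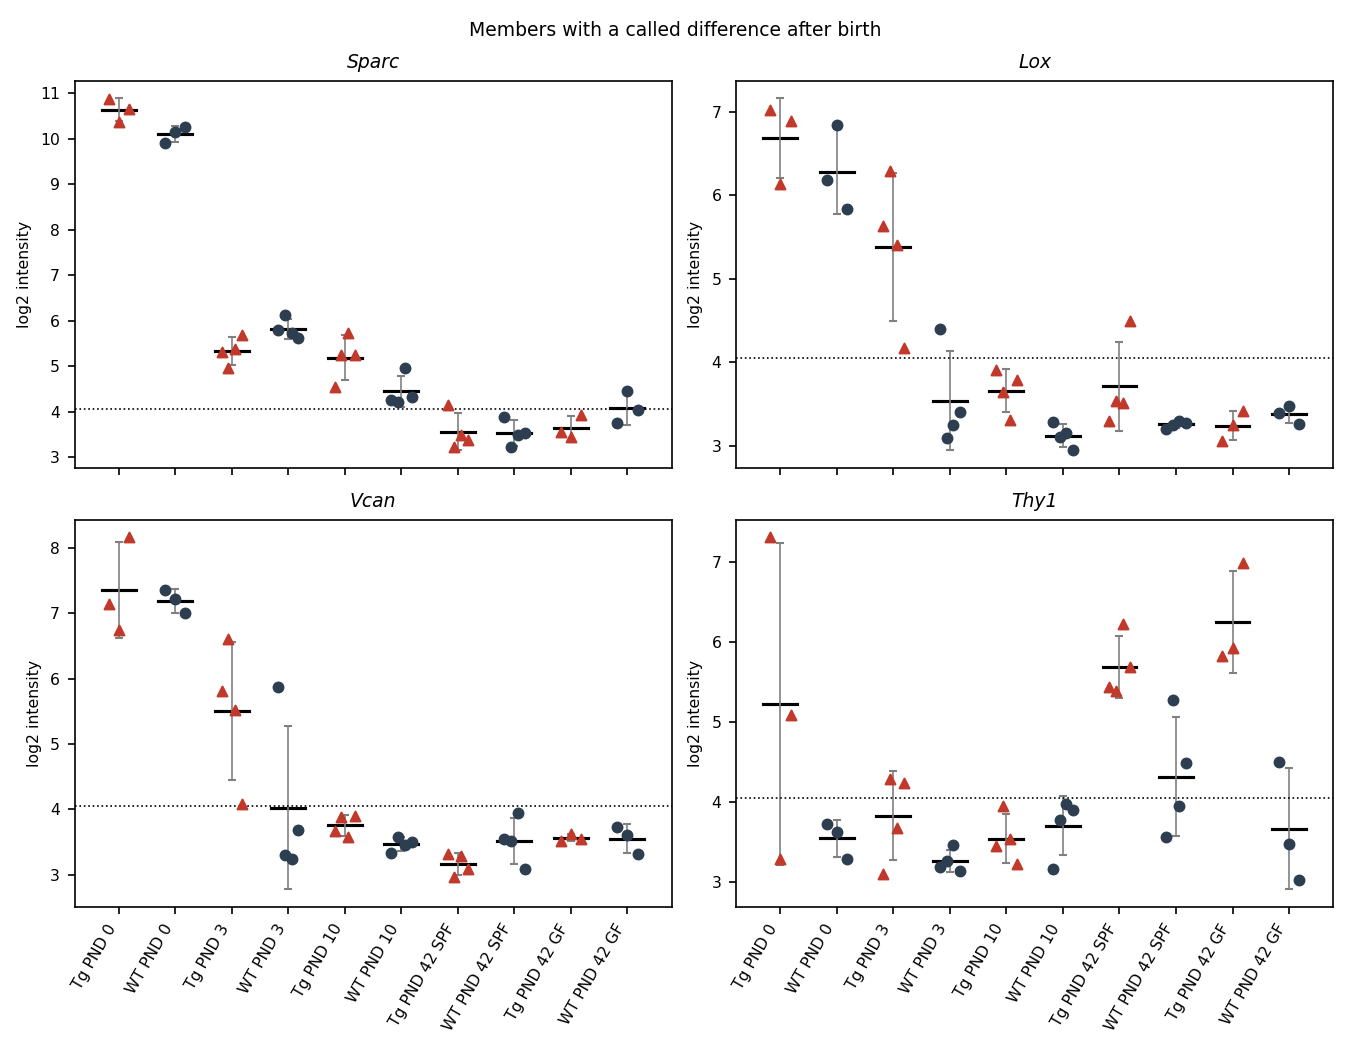
Log2 intensity (vertical axes, not starting at 0) of Sparc, Lox, Vcan and Thy1 in all 36 arrays by group, Tg as triangles and WT as circles, with group means as lines, bars of 1 SD and the background limit of 4.06 dotted. Lox and Vcan lie above background in the 4 Tg pools of PND 3, Sparc is lower at PND 42 than at PND 3, and Thy1 is higher in Tg than in WT mice at PND 42.

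No effect of housing on the members was detected. Between GF and SPF mice of PND 42, 0 members were called in Tg mice (0.142% of all features) and 0 in WT mice (0.0657%), and the difference of the genotype effect between housings was called for no member either (0.00346%). For Thy1 that difference was 1.21 ± 0.75 (GF minus SPF). A p that misses the limit does not show that housing leaves these genes alone, and 35 of 36 members in Tg and 34 of 36 in WT mice were near background in SPF housing.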

How the data were processed

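RNA of BAL macrophages was amplified and measured with the Mouse Gene 1.0 ST array of Affymetrix, 1 colour each. The authors deposited log2 intensities made with RMA in Partek (6.5 in the submitters' processing notes), 1 value per transcript cluster. No value was changed, and the number of columns not used was 0. Of 35556 features, 6616 numbered below the first annotated one were left out, leaving 28940. Symbols came from the platform annotation, in which 21218 features have 1 symbol and 1881 several.

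Group means were fitted to all 36 arrays with limma 3.58.1 in R 4.3.3, with 1 mean for each of 10 groups and two-sided moderated tests in 15 contrasts, adjusted by the Benjamini-Hochberg method over all features. A member was called at an adjusted p of 0.05. The labels call the arrays biological replicates, which are pools of pups or single mice. The p-values rest on 1 spread per feature that mixes both kinds over all 10 groups. The median SD of the members was 0.94 in Tg and 0.36 in WT pools of PND 0, and between 0.107 and 0.154 in the later groups. The p-values at PND 0 therefore do not measure the spread of the pools compared there. The procedure was tested on simulated data, drawn with the same spread in all 10 groups. That test does not cover groups of unequal spread, such as the Tg pools of PND 0.

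The members, lists and tests were chosen with earlier results of these data known. By rule, per-array values are given for the 2 members of each role with the largest difference at PND 0 and for members called between genotypes at other ages or in an interaction, and up to 3 called genes of each list are named. Chad, Sparc, Cd3e and Cd3g were added after their values were seen. Same-numbered arrays were checked for pairing, and none was detected. Alternatives changed 1 choice at a time: variance prior, moderation, weights, scaling, dim features, features per gene, replicate block, the arrays fitted, the call limit and each array left out. Counts of the other gene lists without each array of PND 0 were added after the data were seen. Array number and signal over background limit the precision.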

Additional observations from a re-analysis of the deposited data

Results flagged for a closer look

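Within groups of 4 arrays, 10 of 216 member and group pairs had 1 array far from the other 3 (its gap to the nearest passed Dixon's critical value), where chance gives about 1 in 20. Vcan read 5.87 in WT PND 3 replicate 1 and 3.25 to 3.68 in the others. Sparc read 4.96 in WT PND 10 replicate 3, against 4.22 to 4.33. The other 8 were small steps near background: Dcn 3.96 in Tg PND 3 replicate 3, Lum 4.04 in WT PND 3 replicate 3 and 3.49 in Tg PND 10 replicate 1, Meox2 3.95 in WT PND 3 replicate 2 and 3.57 in WT PND 10 replicate 3, Eln 3.86 in Tg PND 10 replicate 3, Twist2 3.42 in WT PND 10 replicate 3, and Bgn 3.42 in WT PND 42 SPF replicate 1.

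For 8 members the Tg minus WT difference changed between PND 0 and PND 3 by the limma interaction test, at an adjusted p of 0.0404 or less (1.58% of all features were called lower). All 8 were near background in both genotypes at PND 3, where a difference could not show. The changes therefore largely restate the differences at PND 0 and are no separate evidence of a change with age. The difference at PND 3 minus that at PND 0 was -1.74 for Col1a1, -1.93 for Col6a3, -1.27 for Col12a1, -2.29 for Lum, -1.75 for Ogn, -2.44 for Mfap5, -2.72 for Meox2 and -1.63 for Tbx5, on the log2 scale.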

How the results depend on the processing

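Of 5399 values of single members under other settings, 5084 kept their direction and side of the limit, 295 lost a call, 18 gained one and 2 changed sign. Most of the 47 settings leave out 1 array, mostly of a group outside the contrast, where the fitted difference cannot change. The share kept is therefore no measure of stability. Both changes of sign were at PND 0, where leaving out 1 array gave Vcan between -0.24 (without the library labelled Tg replicate 3) and 0.46 and Twist1 between -0.091 (without Tg replicate 1) and 0.22. The 19 calls at PND 0 (4.33% of all features called) became 12 with array weights (1.52%), 8 with weights by group variance (0.76%) and 0 with only the groups compared (0 features). With 1 array left out they ran from 4 (1.9%) to 30 (7.25%), while the mean difference over the members, 1.10, ran between 0.76 and 1.71. The 8 interaction calls became 5 with group variance weights and 0 with only the groups compared (3 to 28 with 1 array left out). The 2 calls between genotypes at PND 3 became 1 without moderation and 1 with only the groups compared (1 to 2). At PND 10 the count of 0 became 1 (Sparc) with array weights (0 to 1), and at PND 42 in SPF housing it became 1 (Thy1) with either kind of weights and 2 (Thy1 and Col6a3) with only the groups compared (0 to 1). The call of Thy1 in GF mice ranged from 0 to 1. With only the groups compared, the 2 calls of Tg PND 10 against PND 3 (1 to 2) and the 1 call of WT PND 10 against PND 3 (1 to 1) became 0, and the WT count was 2, with Chad, under array weights. The single call of WT PND 42 against PND 10 became 0 at 2-fold (0 to 1). The falls at PND 3 numbered 20 to 32 in WT and 33 to 36 in Tg mice with 1 array left out. The causes were not tested.

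The deviations from group means of the 18 pairs of same-numbered Tg and WT arrays correlated between -0.126 and 0.244, with 1 pair over 0.1. No pairing by number was detected, but low correlations cannot show that the arrays were unmatched. With the replicate block, 12 members were called at PND 0 (3.3% of all features) and 5 in the interaction. Member means near background after birth limit what the arrays could show there.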
